A study of Rattus norvegicus with 5 samples.

Results

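The comparison described here sets the lens cultured with Bleomycin for 2 days against the Control lens. Its members were the named probe sets with a log2 signal of 5 or more in either of both arrays, 4110 of the 36685 probe sets on the array. The signal is a log2 value, so that a difference of 1 is a 2-fold change. The series holds 5 arrays of cultured rat lenses, 1 per condition, on the Rat Gene 2.0 ST array. The Bleomycin Day 2 lens had been kept in medium with Bleomycin at 800 μg/mL for 2 days. The other treated lenses had been kept with Bleomycin at 800 μg/mL for 6 days, or with methylmethanesulfonate (MMS) at 1 mM for 2 or 4 days. The Control lens had been kept in normal medium for 4 days. The donors were male Sprague Dawley rats aged 6 weeks, and all lenses were cultured in serum-free medium renewed every day. RNA was taken from whole lenses, so epithelium and fiber cells were read together, and a lower signal from fewer cells cannot be told apart from less RNA per cell. Since there was 1 array per condition, differences could not be set against replicate error and were not tested. The Control lens had been in culture for 2 days longer than the Bleomycin Day 2 lens, so the drug and the days in culture cannot be told apart. The signal in the MMS Day 2 array, at equal days in culture, is therefore given beside many of the values.

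Bleomycin is an antitumor glycopeptide that, once loaded with iron, attacks the sugar backbone of DNA with the help of oxygen. Cells answer such breaks through the kinase ATM and the transcription factor p53, which switches on genes of cell cycle arrest, repair and cell death. The lens is a closed body of fiber cells filled with crystallins, covered at the front by a single layer of epithelial cells and wrapped in a collagen capsule. The epithelium carries most of the transport and growth factor signaling of the lens and makes the capsule, and most fiber cells no longer have a nucleus.

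Bleomycin Day 2 was at least 2-fold higher than Control at 36 probe sets, 0.876% of the members, and at least 2-fold lower at 397, 9.66%. Over the 3869 genes with a probe set of 1 symbol, averaging the probe sets of a gene, 34 genes (0.879%) were at least 2-fold higher and 383 (9.90%) at least 2-fold lower. Counts for the gene lists below are to be read beside these shares. The median difference over all these genes was -0.16, and 67.5% of them lay within 0.5 of Control. Of the 3869 genes, 2425 lay below Control and 1171 above it. At least 4-fold separated 7 genes that were higher and 70 that were lower, and at least 8-fold separated 2 that were higher and 18 that were lower. The signal filter shapes these counts, because a probe set that reached 5 in 1 array alone had to lie on that array's side. Of the members, 3210 reached 5 in both arrays, 152 in Bleomycin Day 2 only and 748 in Control only, and 21 of the 36 higher and 265 of the 397 lower probe sets came from these last groups. Among the 2999 genes at 5 or more in both arrays, 13 (0.433%) were at least 2-fold higher and 124 (4.13%) at least 2-fold lower. How the arrays are scaled also moves the split, since 91.7% of the probe sets at least 2-fold apart were lower as deposited, against 71.0% after centring on the median of the members and 61.1% after quantile normalization of both arrays. Of the members, 7.23% had equal values in both arrays within 0.0005. Array medians ran from 2.84 (Control) to 3.02 (MMS Day 4).

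**Figure D1:**
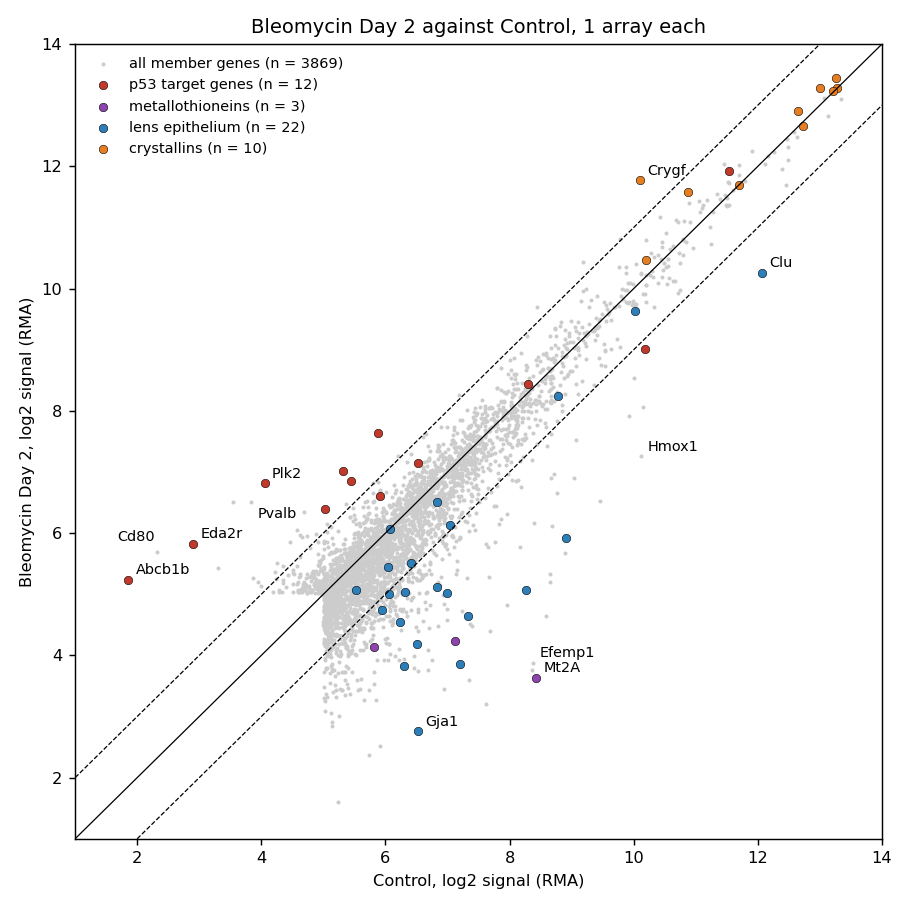
Log2 signal of each of the 3869 member genes in Bleomycin Day 2 (vertical axis) and Control (horizontal axis), 1 array each. The solid line marks equal signals and the dashed lines a 2-fold difference, and colored points are 4 gene lists. Metallothioneins and many lens epithelium genes lie below the lower dashed line, 7 of the 12 p53 target genes above the upper one, and crystallins near the top of the range.

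The sequences shown first belong to genes at the far ends of the comparison. Metallothioneins are small proteins that bind zinc and copper, and their genes are switched on by the metal-sensing factor MTF1, which binds metal response elements. The pattern searched for was TGCNCNC, in which N is any base, a loose form of the core of these elements. The promoters of Mt2A, the gene farthest below Control, and of Mt1 are given from 250 bases before to 50 bases after the start of the gene. They are on the minus strand of the rat build GRCr8, from RefSeq, at chr19:10838659-10838958 and chr19:10832926-10833225. Capitals mark matches to TGCNCNC on either strand.
Mt2A: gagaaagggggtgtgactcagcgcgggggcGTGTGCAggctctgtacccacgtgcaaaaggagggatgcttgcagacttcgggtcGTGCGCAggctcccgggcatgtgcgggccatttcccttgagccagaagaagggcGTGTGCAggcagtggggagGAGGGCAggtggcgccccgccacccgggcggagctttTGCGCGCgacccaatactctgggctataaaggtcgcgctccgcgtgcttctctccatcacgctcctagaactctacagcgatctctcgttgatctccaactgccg
Mt1: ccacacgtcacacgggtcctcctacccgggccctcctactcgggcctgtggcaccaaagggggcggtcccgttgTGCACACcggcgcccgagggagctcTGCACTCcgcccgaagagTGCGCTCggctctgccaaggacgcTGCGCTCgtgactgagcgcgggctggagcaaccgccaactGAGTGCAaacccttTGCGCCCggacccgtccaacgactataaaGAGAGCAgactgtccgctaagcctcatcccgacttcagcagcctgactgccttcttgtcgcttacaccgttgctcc
The Mt2A promoter held 5 matches and the Mt1 promoter 7. Of 33469 rat promoters of 300 bases in the same table, 49.6% held at least 1 match, 0.669% at least 5 and 0.108% at least 7, with overlapping matches each counted. The promoter listed for Mt1f, on chromosome X, held 0. A match of letters is a description of the sequence and not a measured binding site.

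The promoter of Cdkn1a, which encodes the cell cycle inhibitor p21, is shown because this gene is a classical p53 target. It is on the plus strand at chr20:7150682-7150981 (GRCr8, RefSeq), and capitals mark its match to the p53 decamer, a consensus of 10 bases that was searched on both strands.
Cdkn1a: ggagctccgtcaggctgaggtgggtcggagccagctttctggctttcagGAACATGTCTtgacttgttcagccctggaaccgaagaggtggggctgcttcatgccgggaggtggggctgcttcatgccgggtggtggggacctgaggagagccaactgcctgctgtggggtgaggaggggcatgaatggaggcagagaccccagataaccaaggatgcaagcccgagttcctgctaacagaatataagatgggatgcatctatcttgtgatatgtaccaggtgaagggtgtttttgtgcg
At least 1 decamer was found in 7.98% of the 33469 promoters. Of the 12 p53 target genes among the members, 11 had a promoter in the table and 4 of them held a decamer, namely Cdkn1a, Ccng1, Ei24 and Gadd45a.

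Mir204 is printed because it was 1 of the 2 member microRNA genes at least 2-fold apart. It is the one of them with a sequence in the table. The seed, bases 2 to 8, is in capitals, and miR-211-5p is added because it has the same seed (both GRCr8, RefSeq).
rno-miR-204-5p: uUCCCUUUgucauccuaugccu
rno-miR-204-3p: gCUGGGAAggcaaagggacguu
rno-miR-211-5p: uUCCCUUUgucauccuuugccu
In the RefSeq gene table Mir204 lies inside Trpm3, and its values are given with those of that gene.

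Of the 34 genes at least 2-fold higher in Bleomycin Day 2 than in Control, 7 were in the list of p53 target genes. Abcb1b, a drug efflux pump of the P-glycoprotein family, had a signal of 5.24 in Bleomycin Day 2, 4.49 in MMS Day 2 and 1.86 in Control, the widest gap upward of all members (10.4-fold, difference 3.38). Eda2r, a receptor of the tumor necrosis factor family, had 5.82, 5.26 and 2.91 in the same order (7.56-fold). Plk2, a kinase that delays the cell cycle after damage, had 6.82, 6.36 and 4.06 (6.79-fold). These 3 genes were under 5 in Control, so the true size of their folds is uncertain. Cdkn1a had 7.02 in Bleomycin Day 2, 7.38 in MMS Day 2 and 5.32 in Control, a difference of 1.70 between Bleomycin Day 2 and Control. Tp53inp1, which promotes p53 activity and autophagy, had 7.63, 6.40 and 5.88 (difference 1.76). Gdf15, a secreted stress signal, had 6.86, 7.42 and 5.44 (1.42), and Phlda3, an inhibitor of the survival kinase AKT, had 6.39, 5.75 and 5.03 (1.36). Both drugs thus stood above Control at all of these genes, with Tp53inp1 and Phlda3 higher in Bleomycin Day 2 and Gdf15 and Cdkn1a higher in MMS Day 2.

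Not every p53 target lay 2-fold apart. Mdm2, the ubiquitin ligase that degrades p53, had 6.60 in Bleomycin Day 2, 7.43 in MMS Day 2 and 5.91 in Control. Ei24 and Ccng1 lay 0.64 and 0.38 above Control, and Gadd45a, a growth arrest gene, 0.14. Ptp4a1, a phosphatase, was the only member of the list below Control, with 9.02 in Bleomycin Day 2 against 10.18 in Control. In all, 12 of the 33 p53 target genes on the array were members, of which 7 were at least 2-fold higher and 1 at least 2-fold lower, with a median difference of 1.39. Within the 9 that reached 5 in both arrays the median was 0.69 with 4 at least 2-fold higher, and over all 33 genes with no signal filter it was 0.33 with 7 at least 2-fold higher. The median over all 3869 genes was -0.16. Over all 18186 genes with no filter it was 0.00, with 117 (0.643%) at least 2-fold higher and 559 (3.07%) lower.

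Repair genes were mostly level with Control, apart from Lig4 and Gadd45b. Lig4 encodes DNA ligase IV, which seals double-strand breaks in non-homologous end joining. Its signal was 5.43 in Bleomycin Day 2, 3.65 in MMS Day 2, 3.59 in Bleomycin Day 6, 3.02 in MMS Day 4 and 3.30 in Control, so only the Bleomycin Day 2 array exceeded 5. Gadd45b, a stress gene linked to growth arrest and DNA demethylation, had 6.48 in Bleomycin Day 2, 7.72 in MMS Day 2 and 5.36 in Control. Parp1, which senses strand breaks, had 5.32 in Bleomycin Day 2 against 4.63 in Control. The end joining proteins Xrcc5 and Xrcc6, which form the Ku heterodimer, differed by 0.03 and -0.01, and the base excision genes Polb, Apex1 and Alkbh3 by 0.12, 0.24 and 0.01. Pcna, the sliding clamp of replication, differed by -0.11 and Xpa, of nucleotide excision repair, by -0.50. Of the 47 repair genes on the array 12 were members, 2 of them at least 2-fold higher and 0 at least 2-fold lower, with a median of 0.03. Atm, the kinase upstream of p53, had 2.51 in all 5 arrays and was not a member.

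Several other genes far above Control belong to no single pathway. Cd80, a costimulatory ligand of immune cells, had 5.69 in Bleomycin Day 2, 5.58 in MMS Day 2 and 2.32 in Control (10.3-fold), and its other probe set, under the filter, had 4.65, 4.44 and 2.37. Pln, the inhibitor of the calcium pump of the sarcoplasmic reticulum, had 6.50, 5.32 and 3.54 (7.80-fold). Pvalb, the calcium buffer parvalbumin, had 6.51 in Bleomycin Day 2 against 3.83 both in MMS Day 2 and in Control (6.42-fold), and reached 7.28 in Bleomycin Day 6 and 7.44 in MMS Day 4. Among the Day 2 arrays the gap in Pvalb was thus seen in Bleomycin alone. Abo, a glycosyltransferase of blood group antigens, differed by 1.40 from Control, Slc6a8, the creatine transporter, by 1.33, Id1, a target of bone morphogenetic protein signaling, by 1.25 and S100a11, a calcium-binding protein, by 1.25. Uchl1, a deubiquitinase, had 10.80 in Bleomycin Day 2 against 9.78 in Control, and Gsn, the actin-severing gelsolin, had 7.25 against 6.20. Gsn read between 7.24 and 7.25 in all 4 treated arrays.

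**Figure D2:**
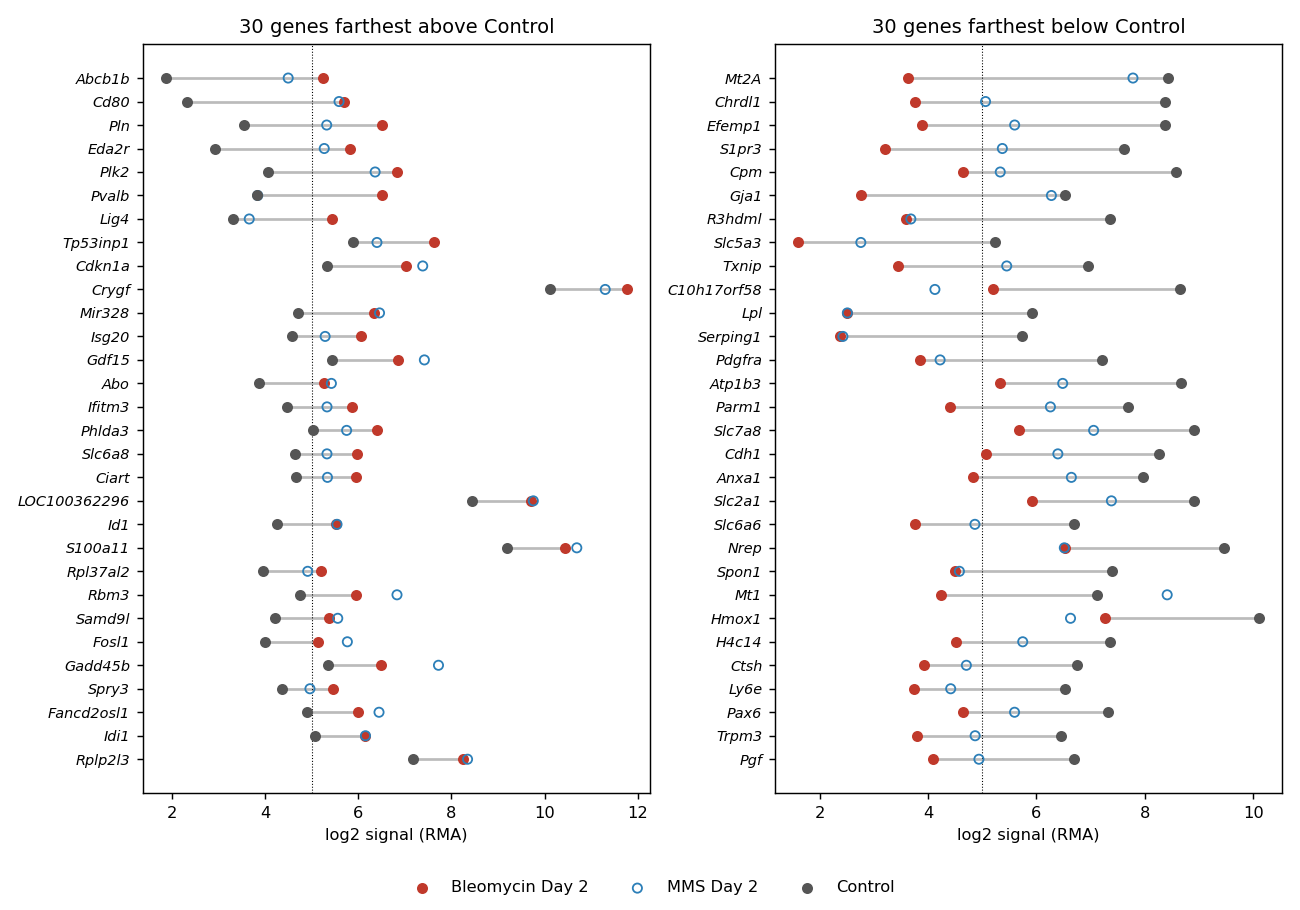
Log2 signals of the 30 genes farthest above (left) and the 30 farthest below Control (right), with filled red points for Bleomycin Day 2, open blue points for MMS Day 2 and gray points for Control, 1 array each. The dotted line is the signal filter of 5. Most genes on the left begin under it in Control, most on the right end under it in Bleomycin Day 2, Mt2A and Gja1 have their MMS Day 2 point close to Control, and Mt1 has it above Control.

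Metallothioneins were the list with the lowest median, at -2.89 over the 3 members of 5 such genes on the array. Over all 5 with no filter the median was -1.30, with 3 at least 2-fold lower and 1 above Control. Mt2A had 3.63 in Bleomycin Day 2, 2.69 in Bleomycin Day 6, 7.78 in MMS Day 2, 6.73 in MMS Day 4 and 8.43 in Control, a 27.8-fold gap between Bleomycin Day 2 and Control (difference -4.80). The brighter probe set of Mt2A had 5.19 in Bleomycin Day 2 against 10.27 in Control, and the dimmer one 2.08 against 6.59. Both probe sets therefore lay on the same side, with differences of -5.09 and -4.51. Mt1 had 4.24 in Bleomycin Day 2, 4.64 in Bleomycin Day 6, 8.41 in MMS Day 2, 8.99 in MMS Day 4 and 7.12 in Control (7.39-fold lower in Bleomycin Day 2 than in Control). Mt1f had 4.13, 4.66, 7.05, 7.50 and 5.82 in the same order (3.22-fold lower). The 3 genes were below Control in both Bleomycin arrays, while Mt1 and Mt1f were above Control in both MMS arrays. A second Mt1 probe set, under the filter, had 1.80 in Bleomycin Day 2 and 1.51 in Control and so did not share the direction. The sequences of metallothionein genes are close to each other, so their probe sets may share signal. None of the 3 genes reached 5 in Bleomycin Day 2.

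Other genes of metal handling stayed near Control. Mtf1, the factor that binds metal response elements, had 6.16 in Bleomycin Day 2 against 5.82 in each of the other 4 arrays. The ferritin chains Ftl1 and Fth1, which store iron, differed by -0.24 and -0.18, and the copper importer Slc31a1 by 0.42. Of the 13 members among 33 genes of zinc, copper and iron handling, Cp, the ferroxidase ceruloplasmin, was the only one at least 2-fold apart, with 4.74 in Bleomycin Day 2 against 5.95 in Control.

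Antioxidant genes showed no shared direction. NRF2 is the factor that switches on detoxifying enzymes, and its 18 member targets of 34 on the array had a median of -0.06, with 1 at least 2-fold higher and 2 lower. Osgin1, a growth inhibitor induced by oxidative stress, had 5.25 in Bleomycin Day 2, 4.21 in MMS Day 2 and 4.24 in Control. Hmox1, which degrades heme, had 7.26 in Bleomycin Day 2, 6.63 in MMS Day 2 and 10.11 in Control (7.23-fold lower in Bleomycin Day 2). Ptgr1 and Gstm1 had equal values in Bleomycin Day 2 and Control, at 5.60 and 5.39, and the glutathione synthesis genes Gclc and Gclm differed by 0.39 and -0.62. Gstp1, a glutathione transferase, had 5.22 in Bleomycin Day 2, 7.54 in MMS Day 2 and 6.05 in Control. Nqo1, a quinone reductase under the filter in this comparison, had 4.08 in Bleomycin Day 2, 7.64 in MMS Day 2 and 3.55 in Control. Among 24 member genes of glutathione and peroxide defense the median was 0.00, with 0 higher and 3 lower by 2-fold. Txnip, the inhibitor of thioredoxin, was the farthest, with 3.44 in Bleomycin Day 2, 5.45 in MMS Day 2 and 6.95 in Control (11.3-fold lower), followed by Msrb3, a methionine sulfoxide reductase, and Gstt2, with differences of -1.40 and -1.29. The peroxidases Gpx1, Prdx1 and Prdx6 differed by 0.19, 0.06 and 0.29.

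Genes of the lens epithelium were lower in Bleomycin Day 2 almost throughout. Of 28 such genes on the array 22 were members, 14 of them at least 2-fold lower and 0 higher, with a median of -1.48. The 14 that reached 5 in both arrays had a median of -0.91 with 6 at least 2-fold lower, and all 28 with no filter a median of -1.11 with 15 at least 2-fold lower. Gja1, which encodes the epithelial gap junction protein connexin 43, had 2.76 in Bleomycin Day 2, 3.23 in Bleomycin Day 6, 6.28 in MMS Day 2, 3.55 in MMS Day 4 and 6.53 in Control (13.7-fold lower in Bleomycin Day 2). The MMS Day 2 array thus stayed near Control at Gja1 and the other 3 treated arrays did not. Cdh1, the epithelial cadherin, had 5.07 in Bleomycin Day 2, 6.39 in MMS Day 2 and 8.26 in Control (9.10-fold lower). Slc2a1, the glucose transporter GLUT1, had 5.92, 7.38 and 8.91 (7.98-fold lower), and Pdgfra, a growth factor receptor, had 3.86, 4.22 and 7.20 (10.2-fold lower). Aqp1, the water channel of the epithelium, had 5.02 in Bleomycin Day 2 against 6.98 in Control. Clu, the secreted chaperone clusterin and the brightest gene of the list, had 10.26 against 12.07, well within the range of the array. At the other end of the list, Aqp5 had equal values in both arrays, Six3 differed by -0.31 and Sfrp1, a secreted WNT antagonist, by -0.40.

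Of 24 transcription factor genes of the lens 12 were members, of which 5 were at least 2-fold lower and 0 higher, with a median of -0.75. Pax6, which directs eye development and is held on in the epithelium, had 4.65 in Bleomycin Day 2, 5.60 in MMS Day 2 and 7.33 in Control (6.40-fold lower). Tfap2a had 4.19, 5.16 and 6.51, and Foxe3, an epithelial forkhead factor, had 4.55, 4.40 and 6.23. Foxp1 and Meis2 had differences of -1.10 and -1.06. Sox2, Pitx3 and Six3 differed by -0.91, -0.59 and -0.31, and Gata3 by 0.12. Prox1 and Maf, which drive fiber cell differentiation, differed by -0.28 and -0.18, and Hsf4, the heat shock factor of the lens, by -0.02. Pax6, Tfap2a, Foxe3 and Meis2 passed the filter in Control only. Of the 7 members at 5 or more in both arrays 1 was at least 2-fold lower, with a median of -0.31, and with no filter the median over all 24 was -0.07.

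Fiber cell genes and crystallins were near Control. Of 23 fiber genes on the array 22 were members, with a median of -0.02, 0 at least 2-fold higher and 2 lower. The share at least 2-fold lower over all member genes was 9.90%. Mip, the fiber water channel, had 12.04 in Bleomycin Day 2, 11.46 in MMS Day 2 and 11.45 in Control. Tdrd7, an RNA granule protein whose loss causes cataract, had 10.80, 10.31 and 10.21, Lctl 10.76, 10.68 and 10.45, and Dnase2b, the nuclease that removes fiber cell nuclei, 7.86, 7.82 and 7.42. The pair at least 2-fold lower was Efnb2, an ephrin ligand, with 4.67 in Bleomycin Day 2 against 6.17 in Control, and Slc24a2, a sodium and calcium exchanger, with 4.73 against 5.80. All 10 crystallin genes with a probe set of their own were members, with a median of 0.22 and a range of differences from -0.06 to 1.67. Crygf was the only one at least 2-fold apart, with 11.77 in Bleomycin Day 2, 11.30 in MMS Day 2 and 10.11 in Control. Cryge had 11.58 against 10.87 in Control, Cryab 13.27 in both arrays and Crygs 12.67 against 12.72. The gamma crystallins are near-identical copies, so the split between them is uncertain, and the brightest crystallins lie close to the highest signal of the array.

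**Figure D3:**
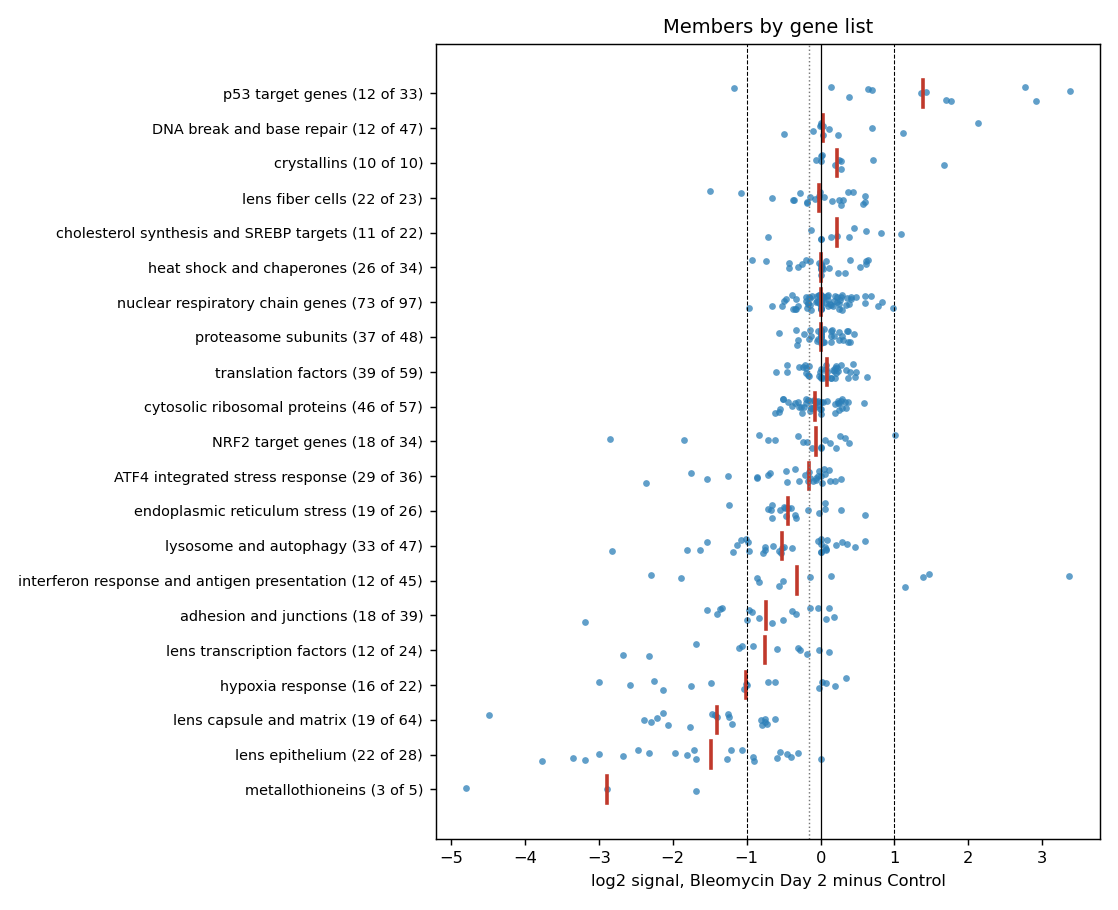
Difference of log2 signal, Bleomycin Day 2 minus Control, for each member gene of 21 lists, with the red bar at the list's median and the number of members of those on the array in brackets. Dashed lines mark 2-fold and the dotted line the median of all member genes. The p53 targets lie to the right, the families of respiration, translation and protein turnover around 0, and lens epithelium, capsule and metallothioneins to the left.

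Genes of the capsule and its assembly lay below Control without exception among the members. Of 64 such genes 19 were members, of which 13 were at least 2-fold lower and 0 higher, with a median of -1.40. The 11 that reached 5 in both arrays had a median of -1.26 with 6 at least 2-fold lower. With no filter the median over all 64 was -0.01, with 13 of them at least 2-fold lower. Efemp1, an extracellular glycoprotein, had 3.88 in Bleomycin Day 2, 5.60 in MMS Day 2 and 8.37 in Control (22.4-fold lower). Col4a1, the main collagen chain of basement membranes, had 5.28, 5.17 and 7.67 (5.26-fold lower), and its partner Col4a2 had 5.18, 4.92 and 5.99. Col4a3, Col4a5 and Lamc1, a laminin chain, had differences of -1.20, -1.23 and -1.40. The collagen-modifying enzymes Plod2 and P4ha2 differed by -2.06 and -2.13, the crosslinker Loxl2 by -2.29 and the collagen chaperone Serpinh1 by -1.26. Sparc, a matrix protein of the capsule, had 8.54 in Bleomycin Day 2, 9.06 in MMS Day 2 and 10.01 in Control. Timp3, an inhibitor of matrix proteases, had 6.17, 6.28 and 8.39, while Timp1 had 6.90 in Bleomycin Day 2, 8.93 in MMS Day 2 and 8.67 in Control. The 2 inhibitors therefore differed, with Timp3 low in both Day 2 arrays and Timp1 near Control in MMS Day 2.

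Genes of growth factor signaling were mostly below Control. Chrdl1, which blocks bone morphogenetic proteins outside the cell, had 3.75 in Bleomycin Day 2, 5.06 in MMS Day 2 and 8.37 in Control (24.5-fold lower). Inhba, a subunit of activin, had 4.56, 4.61 and 6.60, and Tgfb2 had 5.04, 5.24 and 6.21. Id1 was the only member of this group at least 2-fold higher, with 5.51 in Bleomycin Day 2, 5.54 in MMS Day 2 and 4.26 in Control. In all, 15 of 45 genes of TGF-beta, BMP and mesenchymal character were members, with 1 higher and 4 lower by 2-fold. The 7 at 5 or more in both arrays had a median of -0.30 with 1 at least 2-fold lower, and with no filter the median over all 45 was -0.05. Igf1r, the receptor of insulin-like growth factor, had 3.27 in Bleomycin Day 2, 4.35 in MMS Day 2 and 5.85 in Control, and Dusp1, a phosphatase that dampens MAP kinases, had 4.75, 5.12 and 6.99. The fibroblast growth factor receptors Fgfr1, Fgfr2 and Fgfr3 differed by -0.59, -0.91 and -0.45. All 8 members of the list of receptor and MAP kinase feedback genes were below Control, 3 of them by 2-fold, namely Pdgfra, Igf1r and Dusp1. These 3 passed the filter in Control only, and 0 of the 5 members at 5 or more in both arrays were 2-fold lower. With no filter the median over all 48 genes was 0.00, with 19 above Control. Lrp6, the WNT coreceptor, and Wnt7b had differences of -1.35 and -1.16, whereas Wnt7a had equal values and Dkk3 differed by 0.08.

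Adhesion and junction genes lay on both sides of Control, with 3 members above it and 15 below. Of 39 adhesion genes 18 were members, 5 of them at least 2-fold lower and 0 higher, with a median of -0.74. The 12 at 5 or more in both arrays had a median of -0.36 with 3 at least 2-fold lower, and all 39 with no filter a median of 0.00. Cd81, Itgb1 and Ctnnb1, which encodes beta-catenin, lay 0.18, 0.11 and 0.07 above Control. Pkp2, a desmosomal plakophilin, had 3.66 in Bleomycin Day 2 against 5.19 in Control, Itga3, an integrin that binds laminin, 3.99 against 5.40, and Nectin3 5.58 against 6.90. Cd9, a tetraspanin, had 5.02 in Bleomycin Day 2, 6.40 in MMS Day 2 and 6.38 in Control. Cdh2, the cadherin of fiber cells, had 7.48 against 8.14 in Control, and the tight junction scaffold Tjp1 7.65 against 8.04.

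Of 22 hypoxia response genes 16 were members, with a median of -1.01, 0 at least 2-fold higher and 9 lower. Hif1a, the oxygen-regulated factor itself, had 6.11 in Bleomycin Day 2, 7.80 in MMS Day 2 and 8.69 in Control (5.96-fold lower). Ero1a, an oxidase of disulfide formation, had 4.45, 4.40 and 6.71, Bhlhe40 5.40, 5.96 and 7.15, Car9, a carbonic anhydrase, 4.96, 5.09 and 6.44, and Vegfa 6.51, 5.65 and 7.51. Pdk1, a kinase that holds back pyruvate oxidation, lay 0.34 above Control, and Ankrd37, Higd1a and Ndrg1 also lay above it by 0.20 or less. The 13 members at 5 or more in both arrays had a median of -0.71 with 6 at least 2-fold lower. Outside this list, the glycolytic enzymes Pgk1 and Ldha differed by 0.63 and 0.33. Of 23 member genes of glycolysis, pentose phosphate and polyol metabolism 0 were at least 2-fold higher and 4 lower. Over all member genes 9.90% were at least 2-fold lower. The 17 of this list at 5 or more in both arrays had a median of 0.06 with 1 at least 2-fold lower. The 4 lower genes were Slc2a1, the lactate exporter Slc16a3 (-1.49), the glycogen phosphorylase Pygb (-1.08) and hexokinase 2, Hk2 (-1.01). Pygl, another glycogen phosphorylase, had 7.74 in Bleomycin Day 2 against 6.99 in Control.

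Transport genes held some of the widest gaps, with other members near Control. Of 31 genes of amino acid and taurine transport 9 were members, 1 at least 2-fold higher and 4 lower. Their median was -0.44, and -0.15 over all 31 with no filter. Of 48 gap junction, aquaporin and ion transport genes 15 were members, 0 of them 2-fold higher and 5 lower. Their median was -0.36, and -0.02 over all 48 with no filter. Of these 15, 3 lay above Control and 11 below, with Slc4a11 at 0.50 and Car2 at -0.09. Slc7a8, a transporter of neutral amino acids, had 5.67 in Bleomycin Day 2, 7.05 in MMS Day 2 and 8.90 in Control (9.35-fold lower). Slc6a6, which imports taurine, had 3.76, 4.86 and 6.69, and Slc38a2, which imports glutamine, 6.85, 6.33 and 8.10. Slc6a8 lay on the other side, with 5.96 in Bleomycin Day 2, 5.32 in MMS Day 2 and 4.63 in Control. Slc3a2 and Slc7a5, the chains of a heterodimeric transporter of large amino acids, differed by -0.15 and 0.27. Atp1b3, a beta chain of the sodium pump, had 5.33 in Bleomycin Day 2, 6.48 in MMS Day 2 and 8.66 in Control. Trpm3, a cation channel, had 3.79, 4.87 and 6.46, and Mir204, which lies within it, had 3.05, 3.97 and 5.12. Host gene and microRNA were thus lowest in Bleomycin Day 2 and highest in Control among these 3 arrays. Mir211, with the same seed, had 2.59 in Bleomycin Day 2 and 2.13 in Control and was not a member.

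**Figure D4:**
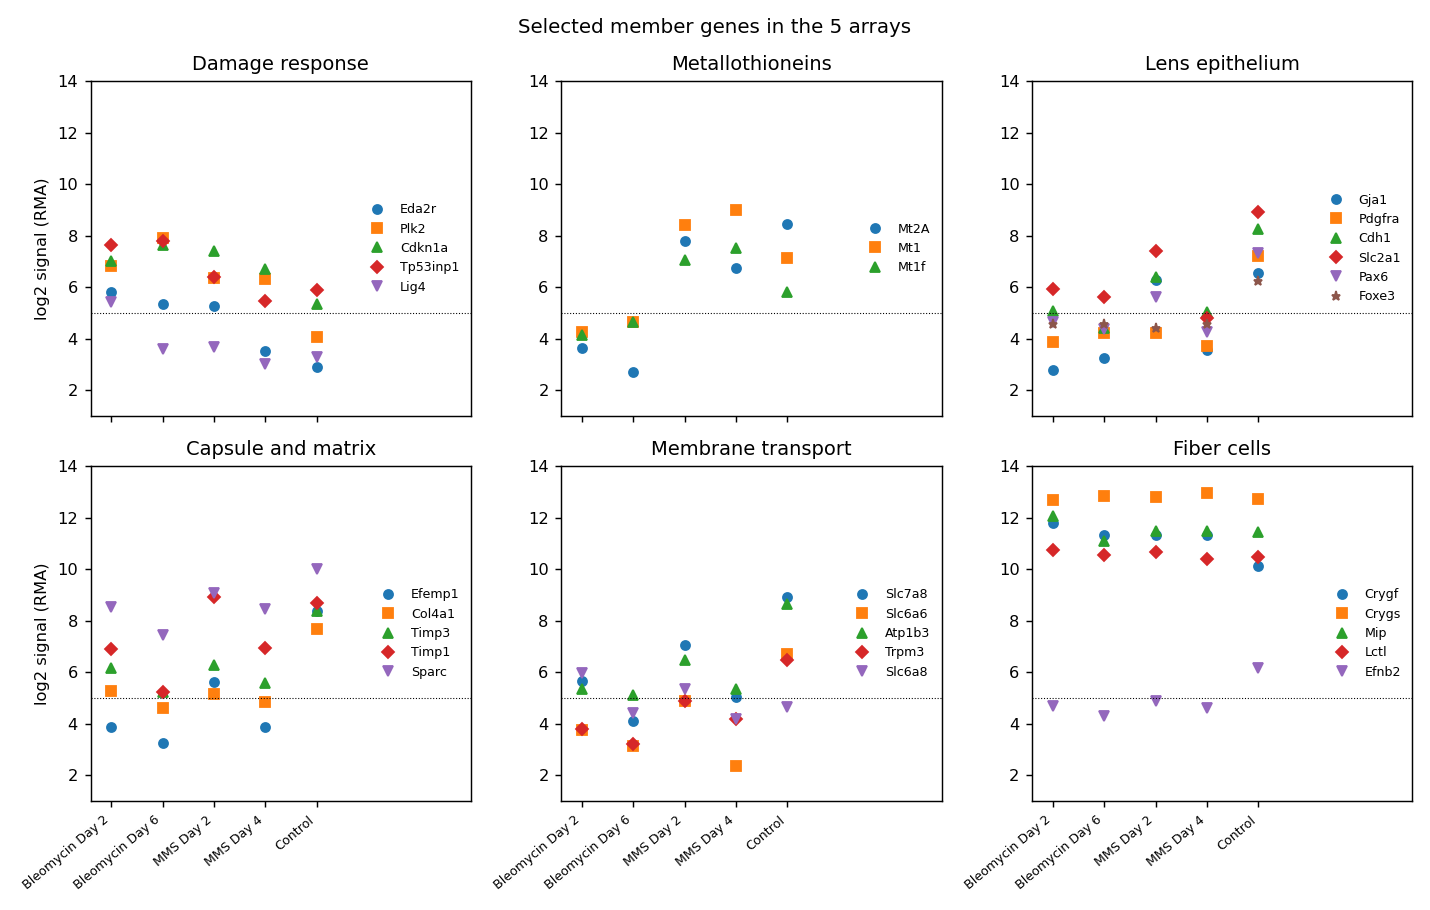
Log2 signal of selected member genes in the 5 arrays, 1 point per array, in 6 panels by function. The dotted line marks the signal filter of 5. Metallothioneins are below 5 in both Bleomycin arrays only, Lig4 is above 5 in Bleomycin Day 2 only, and 4 of the 5 fiber cell genes shown stay between 10 and 13 in all arrays.

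Of 363 microRNA genes on the array 15 were members, 13 of them above Control, with a median of 0.51. Over all 3869 member genes 1171 lay above Control. Mir328 had 6.34 in Bleomycin Day 2, 6.45 in MMS Day 2 and 4.69 in Control (3.13-fold higher), and Mir204 was the only one at least 2-fold lower. Mir185, Mir181d and Mir324 lay 0.88, 0.85 and 0.84 above Control and Mir210, a target of hypoxia signaling, differed by -0.09. With no filter the median of all 363 was 0.00, with 3 at least 2-fold higher and 2 lower. Of the 7 at 5 or more in both arrays 0 were 2-fold apart. Whether these probe sets read the precursor, the host transcript or the mature microRNA was not tested.

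The integrated stress response driven by ATF4 had 29 member genes with a median of -0.16, of which 4 were at least 2-fold lower and none was as far above Control. Nupr1, a stress-induced chromatin protein, had 4.48 in Bleomycin Day 2, 6.14 in MMS Day 2 and 6.85 in Control. Eprs1, a tRNA synthetase, and Psat1, of serine synthesis, had differences of -1.76 and -1.54, while Ddit3, the factor CHOP, had 7.73 against 8.59 in Control and Trib3 5.69 against 5.98. Atf6 was the only 1 of 19 member genes of endoplasmic reticulum stress at least 2-fold apart, with 5.49 in Bleomycin Day 2 against 6.73 in Control, and Hspa5 and Hsp90b1, the main chaperones of that compartment, differed by -0.40 and -0.47. Among 26 heat shock and chaperone genes 0 were 2-fold apart in either direction. The chaperonin genes Cct8, Hspe1 and Cct6a lay 0.65, 0.62 and 0.61 above Control, and Dnajb1 had a difference of -0.92. Of the immediate early genes, Fosl1 had 5.13 in Bleomycin Day 2, 5.76 in MMS Day 2 and 3.99 in Control, and Fos, Jun and Egr1 differed by -0.75, -0.55 and -0.98.

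Interferon-related genes lay on both sides. Of 45 on the array 12 were members, 4 of them at least 2-fold higher and 2 lower, and only 3 reached 5 in both arrays. Cd80 and Isg20, an RNA exonuclease, were among the higher, with Isg20 at 6.05 in Bleomycin Day 2, 5.28 in MMS Day 2 and 4.58 in Control. Samd9l, an antiviral translation regulator, had 5.36, 5.56 and 4.21. Ifitm3, an antiviral membrane protein, had 5.85, 5.32 and 4.46, whereas Ifitm2 had 2.85 in Bleomycin Day 2, 5.41 in MMS Day 2 and 5.14 in Control. A second Ifitm3 probe set, under the filter, had 4.16 against 3.96 in Control, and a second Samd9l probe set 1.08 against 1.16, so neither call is shared by the gene's other probe set. Ifi27 had 4.83 in Bleomycin Day 2, 6.87 in MMS Day 2 and 6.72 in Control, and B2m, of antigen presentation, 7.34, 7.78 and 7.85.

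Of 47 genes of lysosome and autophagy 33 were members, with 0 at least 2-fold higher, 8 lower and a median of -0.52. The 28 at 5 or more in both arrays had a median of -0.45 with 5 at least 2-fold lower, and all 47 with no filter a median of 0.00. Ctsh, a cathepsin, had 3.92 in Bleomycin Day 2, 4.71 in MMS Day 2 and 6.75 in Control (7.07-fold lower), Grn, progranulin, 5.81, 5.95 and 7.62, and Ctsb 7.42, 7.59 and 8.61. Sqstm1, an autophagy receptor, had 6.23 in Bleomycin Day 2, 5.54 in MMS Day 2 and 7.86 in Control. Ctsl had 6.97 in Bleomycin Day 2, 8.27 in MMS Day 2 and 7.97 in Control.

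Lipid genes lay on both sides of Control. Idi1, an enzyme of the mevalonate pathway, had 6.15 in Bleomycin Day 2 and MMS Day 2 and 5.06 in Control. Cyp51, Msmo1, Dhcr7 and Fdft1, also of sterol synthesis, lay 0.82, 0.62, 0.45 and 0.38 above Control, and the regulator Srebf1 had a difference of -0.72. Of 11 member genes of this pathway 8 were above Control, 1 of them by 2-fold, with a median of 0.22. Over all 3869 member genes 1171 lay above Control. Of 22 member genes of fatty acid and sphingolipid metabolism 0 were at least 2-fold higher and 3 lower. Their median was -0.38, with 5 above Control and 17 below. Lpl, the lipase of circulating triglycerides, had 2.51 in all 4 treated arrays and 5.91 in Control. Atm had the same 2.51 in all 5 arrays, and this value is below the array medians, so the size of the gap is uncertain. Elovl6, which elongates fatty acids, had 4.53 in Bleomycin Day 2 against 6.12 in Control, and Asah1, acid ceramidase, 5.09 against 6.21, whereas Scd2, a desaturase, had 9.99 in Bleomycin Day 2, 9.15 in MMS Day 2 and 9.23 in Control.

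All 5 annexin members lay below Control, though only Anxa1 by 2-fold. Of all 3869 member genes 2425 lay below Control. The 16 members among annexins, S100 and calpains were split, with 8 above and 8 below Control. Anxa1, an annexin of inflammation control, had 4.82 in Bleomycin Day 2, 6.64 in MMS Day 2 and 7.96 in Control (8.79-fold lower), while Anxa2, Anxa5, Anxa6 and Anxa7 differed by -0.72, -0.96, -0.72 and -0.97. S100 genes, which encode small calcium-binding proteins, lay on both sides. S100a11 had 10.44 in Bleomycin Day 2 against 9.19 in Control and S100a1 3.09 against 5.03. Of 30 member genes of actin, tropomyosin and tubulin 1 was at least 2-fold higher (Gsn) and 3 lower, namely Cnn3, Tagln2 and Actn4. This is near the share over all member genes, of which 9.90% were at least 2-fold lower. Tagln2 had 4.88 in Bleomycin Day 2, 6.66 in MMS Day 2 and 6.12 in Control, and Actb 11.55, 11.76 and 11.34.

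Cell cycle and death genes were few among the members. Ccnd2, a cyclin of the first growth phase, had 5.28 in Bleomycin Day 2, 5.84 in MMS Day 2 and 6.90 in Control, and was the only one of 6 proliferation genes at least 2-fold apart. The cyclin-dependent kinase inhibitors Cdkn1b and Cdkn1c differed by -0.56 and -0.82, opposite in direction to Cdkn1a. Of 7 apoptosis genes 0 were 2-fold apart, with differences of -0.74 for Bcl2 and 0.59 for Dapk3. Of 19 histone members 0 were at least 2-fold higher and 2 lower, with 6 above Control and a median of -0.22. Over all member genes 9.90% were at least 2-fold lower. The lowest histone member, the H4 gene H4c14, had 4.51 in Bleomycin Day 2, 5.75 in MMS Day 2 and 7.36 in Control. Another H4 gene, Hist1h4b, lay 0.71 above Control. The 12 members among circadian clock and cold-inducible genes had a median of -0.53, with 4 above and 8 below Control. Of them, 2 were at least 2-fold higher and 2 lower. Ciart, a repressor of the clock, had 5.94 in Bleomycin Day 2, 5.33 in MMS Day 2 and 4.66 in Control. Rbm3, a cold-inducible RNA-binding protein, had 5.94, 6.83 and 4.74 in the same order. The lower were Bhlhe40 and Rora, with differences of -1.75 and -1.1, and Cirbp, also cold-inducible, differed by -0.58.

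Large housekeeping families lay close to Control. Of 46 member genes of cytosolic ribosomal proteins, 37 of proteasome subunits, 73 of the nuclear respiratory chain and 39 translation factors, 0 were at least 2-fold apart, with medians of -0.08, 0.00, 0.00 and 0.08. Centring on the median of the members adds 0.29 to every difference in log2 units, and quantile normalization shifted single named genes by between -0.12 and 0.85, so the sign of such small medians turns with the scaling. The 3 mitochondrially encoded genes, COX1, COX2 and COX3, differed by -0.03, -0.22 and -0.16.

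Markers of other cells that a dissected lens could carry were low. Of 60 marker genes of retina, blood, macrophages, endothelium and fibroblasts on the array, 0 reached 5, with highest signals of 4.90 in Bleomycin Day 2 and 4.40 in Control and medians of 2.53 and 2.49. Of 15 markers of ciliary body, iris and cornea, 3 were members. Des, the muscle filament desmin, had 3.44 in Bleomycin Day 2 against 5.59 in Control, Ckm 5.23 against 5.36, and Ptgds, a prostaglandin synthase, 11.73 against 11.54. The part of iris or ciliary muscle in the lower genes was not tested.

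Set directly against MMS Day 2 over the same members, Bleomycin Day 2 was at least 2-fold higher at 21 probe sets (0.511%) and lower at 54 (1.31%), or at 20 genes (0.517%) and 49 genes (1.27%). Among the members, the widest gaps below MMS Day 2 were -4.17 for Mt1, -4.15 for Mt2A, -3.52 for Gja1, -2.91 for Mt1f and -2.56 for Ifitm2. Ptgr1, a reductase of reactive lipids, had 5.60 in Bleomycin Day 2 against 8.06 in MMS Day 2, and Gstp1 5.22 against 7.54. Tuba1c, a tubulin, had 4.80 against 6.91, and Serpina3n, a protease inhibitor, 4.77 against 6.78. Of these, Ptgr1, Gstp1, Tuba1c and Serpina3n lay within 2-fold of Control in Bleomycin Day 2. Membership rests on Bleomycin Day 2 and Control, so genes under 5 in both were left out even if bright in MMS Day 2. Nqo1 was such a gene, with 4.08 in Bleomycin Day 2, 3.55 in Control and 7.64 in MMS Day 2. With the filter over all 5 arrays, 22 probe sets were at least 2-fold higher and 61 lower than in MMS Day 2.

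The higher genes against MMS Day 2 began with Cyp2b1, a cytochrome P450, at 5.02 in Bleomycin Day 2, 2.24 in MMS Day 2 and 6.65 in Control, a gene that both drugs left below Control. Pvalb and Lig4 came next, with differences of 2.68 and 1.78 from MMS Day 2, and Tp53inp1 and Pln lay farther down the order, at 1.24 and 1.19. Among genes that Bleomycin Day 2 left near Control, the ATF4 targets Chac1 and Trib3 had 7.91 and 5.69 in Bleomycin Day 2, against 6.26 and 4.13 in MMS Day 2. Thrsp, a regulator of lipid synthesis, had 7.32 against 5.70, and Sall1, a zinc finger factor, 5.99 against 4.57.

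**Figure D5:**
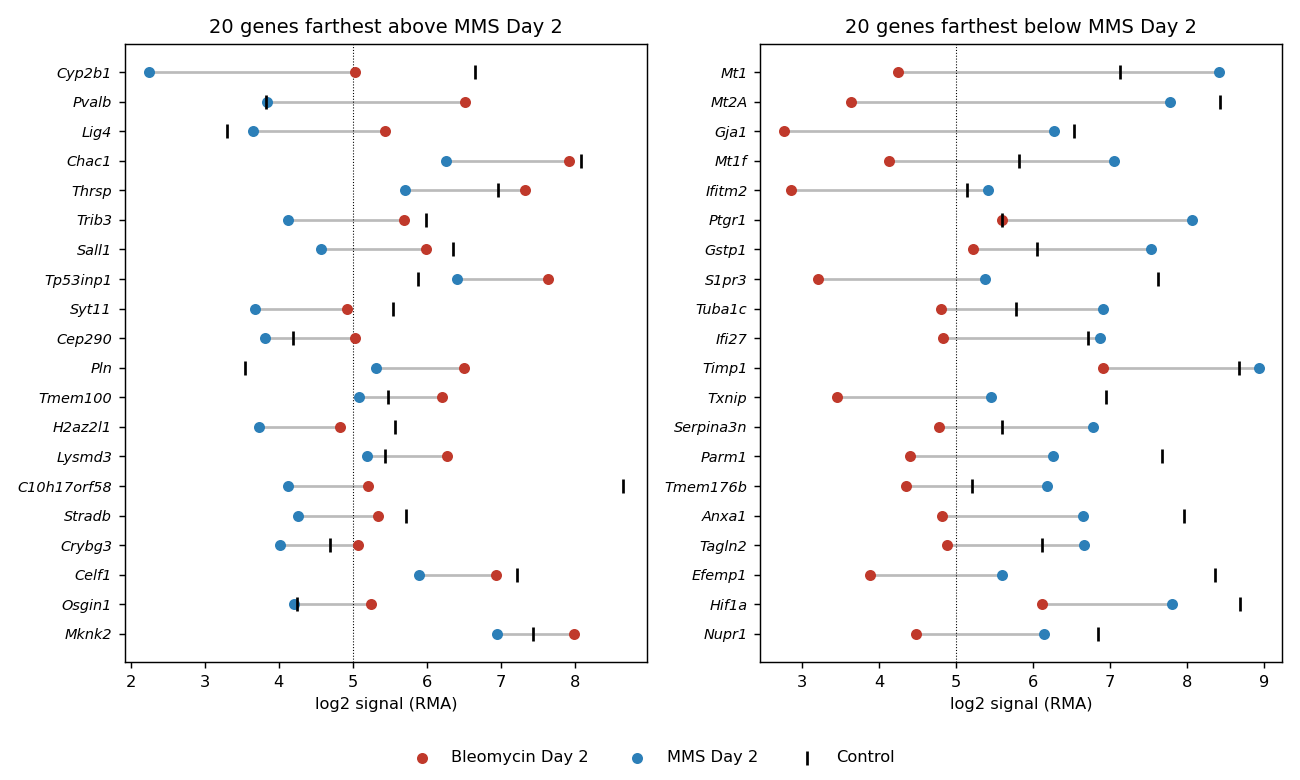
Log2 signals of the 20 member genes farthest above (left) and the 20 farthest below MMS Day 2 (right), with red points for Bleomycin Day 2, blue points for MMS Day 2 and black bars for Control, 1 array each. The dotted line is the signal filter of 5. Mt1 and Mt1f have their Control bar between both drugs, and Ptgr1 has it at the Bleomycin Day 2 point.

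After 6 days of Bleomycin the same genes gave a wider list of lower values. Against Control, Bleomycin Day 6 was at least 2-fold higher at 43 (1.11%) and lower at 798 (20.6%) of the 3869 genes. Of the 383 genes at least 2-fold lower on Day 2, 357 were also at least 2-fold lower than Control on Day 6 and 264 lay farther from Control than on Day 2. Of the 34 higher genes, 22 were at least 2-fold higher than Control on Day 6 and 29 lay above it. These counts share the Control array with the Day 2 counts. The genes were also filtered on Bleomycin Day 2 and Control. Genes high in Control alone were thus kept, while genes high in Bleomycin Day 6 alone could not enter, which tilts the Day 6 split towards lower values. Plk2, Gdf15 and Cdkn1a had 7.89, 8.05 and 7.61 on Day 6, above their Day 2 values. Lig4, Cd80 and Abcb1b had 3.59, 3.99 and 4.21, below their Day 2 values, and Ifitm3 had 2.95, below Control.

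The limit of 2-fold divides genes of nearly equal values. Just inside it above Control stood Osgin1 (1.00), Mllt11 (1.02), Uchl1 (1.03), Gsn (1.06) and Rplp2l3 (1.08), and just outside Atp5hl1 (0.98), Tsc22d3 (0.98), Or9s13 (0.97), Calr4 (0.96) and Glrx3 (0.96). Below Control, Vegfa stood just inside, with 6.51 in Bleomycin Day 2 against 7.51 in Control, and so did Hk2, with a difference of -1.01. Rab8b, with 4.13 against 5.13, and Tbp, with 4.75 against 5.75, stood just outside. At the signal filter, Paf1 entered with 4.98 in Bleomycin Day 2 and a Control signal just above 5, and Hdac4, with 3.92 in Bleomycin Day 2, stayed out with a Control signal just under 5. Of 60 genes with several member probe sets, the median range of the difference among them was 0.19, and 9 genes had a range of at least 0.5. The widest was Zfp36l2, an mRNA decay factor, whose probe sets differed by -1.25 and 0.51.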

How the data were processed

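The series measured RNA of whole rat lenses on 5 Rat Gene 2.0 ST arrays, 1 per condition. The deposited log2 signals are the output of RMA, run by the authors in R over the arrays. This method subtracts background, gives all arrays a common distribution and combines each set's probes into 1 value, which can narrow differences near background. The values were used as deposited and not transformed again. Depth on an array is signal over background. Precision is limited by having 1 array per condition, by signals near background, by probe sets of a gene that differ and by the scaling.

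Gene symbols came from the platform annotation, and RefSeq tables of build GRCr8 served for current names, neighbours and sequences. Of 19086 named probe sets, 18533 had 1 symbol and 553 several, and no gene was named from the sets with several. Of the 3869 member genes, 3854 were found in the RefSeq gene table and 3255 in the promoter table, and 14 of 15 member microRNAs were in the microRNA table. Probe sets of a gene were averaged. Differences, medians and counts at 2-fold were computed in Python 3.11.15 (numpy 2.4.6, pandas 2.3.3, matplotlib 3.10.9), and the counting steps were tested on simulated data. No test across arrays is possible with 1 array per condition.

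The members, the 50 gene lists and the named genes were chosen with earlier results of these data known. Named genes are the 40 farthest from Control each way, up to 10 members per list (all members of lists of 20 or fewer), the 20 farthest apart between the drugs each way, microRNAs 2-fold apart, genes at the limits and genes in the study's text. Other genes named were chosen after their values were seen. Alternatives were no signal filter, a filter of 6, the filter over all 5 arrays, 2 centrings, quantile normalization, unnamed probe sets, a 3-fold limit and the brightest probe set of a gene.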

Additional observations from a re-analysis of the deposited data

Results flagged for a closer look

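The metallothionein genes Mt1 and Mt1f lay on opposite sides of Control under the 2 drugs at equal days in culture. Mt1 differed from Control by -2.89 in Bleomycin Day 2 and by 1.29 in MMS Day 2. Mt1f differed by -1.69 in Bleomycin Day 2 and by 1.23 in MMS Day 2. With 1 array per condition this difference between the drugs was not tested.

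Among the 17599 probe sets with no gene symbol, which the comparison does not use, 2361 reached 5 in either array. Of these 2361, 115 had a signal of 5 or more in Bleomycin Day 2 and lay at least 2-fold above Control. Another 318 of them lay at least 2-fold below Control in Bleomycin Day 2. Of the 4110 named members, 36 (0.876%) were at least 2-fold higher and 397 (9.66%) at least 2-fold lower.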

How the results depend on the processing

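No paired analysis was possible because each condition had 1 array, and for the same reason no array could be left out. The probe sets at least 2-fold higher in Bleomycin Day 2 than in Control numbered 36 as reported, 132 with no signal filter, 20 with a filter of 6, 91 after centring on the median of the members, 125 after quantile normalization, 151 with unnamed probe sets and 11 at 3-fold. Those at least 2-fold lower numbered 397 as reported, 588 with no signal filter and 221 with a filter of 6. They numbered 223 after centring on the median of the members and 196 after quantile normalization. With unnamed probe sets they numbered 715, and at 3-fold 138. Against MMS Day 2, the higher numbered 21 as reported, 55 with no filter, 12 with a filter of 6, 136 with unnamed probe sets and 5 at 3-fold, and the lower 54 as reported, 112, 34, 123 and 21 under the same settings. The filter over all 5 arrays and centring on olfactory receptors moved none of these 4 counts by over 1.5 times. Of 153 named genes at least 2-fold apart, 35 came under 2-fold after centring on the median of the members, 31 after quantile normalization, 5 after centring on olfactory receptors and 1 with the brightest probe set, and none changed sign. Of 45 list medians, 12 shifted by 0.5 or more with no filter, 3 with a filter of 6 and 1 with quantile normalization. Signals under 5 in the lower array leave the size of 21 of the 34 higher and 259 of the 383 lower genes uncertain.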

Other observations

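The genes below were picked after their values were seen, so that no count or share stands behind them, and most belong to none of the gene lists. Nfat5, the transcription factor that answers osmotic stress, had 3.92 in Bleomycin Day 2, 4.10 in MMS Day 2 and 5.97 in Control. Slc5a3, which imports the osmolyte myo-inositol, had 1.60, 2.76 and 5.23 in the same order, and Slc6a6, which imports taurine, 3.76, 4.86 and 6.69. Akr1b1, the aldose reductase that makes the osmolyte sorbitol, did not share this direction, with 10.07 in Bleomycin Day 2, 10.33 in MMS Day 2 and 9.98 in Control.

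Values are also given for 4 genes that restrain complement. Serping1, the inhibitor of the first complement component, had 2.38 in Bleomycin Day 2, 2.43 in MMS Day 2 and 5.74 in Control. Cd55, which breaks up complement convertases, had 3.44, 3.12 and 5.30, Cr1l 3.72, 4.58 and 5.11, and Cd59b 5.24, 5.54 and 6.27. App, the amyloid precursor protein and one of the brighter lower genes, had 8.06 in Bleomycin Day 2, 8.01 in MMS Day 2 and 10.14 in Control.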
